A study of Mus musculus with 96 samples.

Results

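Genes of the regulated secretory pathway were examined in 96 mouse preoptic neurons, 10 in all: the granins Chga, Chgb, Scg2, Scg3 and Vgf, the prohormone convertases Pcsk1 and Pcsk2, their partner proteins Pcsk1n and Scg5, and the carboxypeptidase Cpe. They were chosen by name as dense-core vesicle cargo and peptide processing genes, and are 10 of the 24054 genes counted. Each library came from 1 neuron of the preoptic area of the hypothalamus of C57BL/6N mice aged 2 to 3 months, which was recorded by whole-cell patch clamp in an acute slice, drawn into a glass pipette and sequenced with Smart-seq2, a full-length method for single cells. The recording gave 78 of the 96 cells a temperature class, and the question was which genes could serve as markers of that sensitivity. The labels place 21 cells as warm-sensitive, 5 as cold-sensitive, 24 as temperature-insensitive, 10 as silent and temperature-sensitive and 18 as silent and temperature-insensitive, while the class of 18 cells is given as unknown. All cells share strain, age range, region and recording before harvest, and no transgene, sex or treatment is named. Because no animal, slice or day is named, cells are not independent replicates, and every class stands as 1 sample without any test. Intervals of shares are computed as if cells were independent draws, so they leave out spread between animals, slices or days.

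Granins are acidic proteins that aggregate in the trans-Golgi network and are packed with peptide precursors into dense-core vesicles. Inside the maturing vesicle, the convertases PC1/3 (Pcsk1) and PC2 (Pcsk2) cut precursors after pairs of basic residues, carboxypeptidase E (Cpe) trims the exposed basic residues, and the finished peptides are stored until calcium triggers their release. Many neurons of the preoptic area, a region that governs body temperature, reproduction and sleep, release peptides made in this way.

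A cell had 465167 to 3660726 counts (median 1279600). Rn45s, a ribosomal RNA precursor, took 53.2% of all counts and between 21.8% and 91.6% of those of a cell. Its median share was 67.7% in warm-sensitive, 56.1% in cold-sensitive and 45.4% in insensitive cells, and 61.8% in silent sensitive and 55.0% in silent insensitive cells. It exceeded 75% in 8 of 21 warm-sensitive, 0 of 5 cold-sensitive, 0 of 24 insensitive, 2 of 10 silent sensitive and 4 of 18 silent insensitive cells. At least 1 of 8 neuronal markers reached 10 CPM (counts per 1000000 counts of the cell) in every cell. Their summed level had a median of 1249 CPM in warm-sensitive, 3163 CPM in cold-sensitive and 3401 CPM in insensitive cells, and of 1830 CPM in silent sensitive and 2259 CPM in silent insensitive cells. RNA of astrocyte, oligodendrocyte and microglia markers was also present in most cells, with a summed microglial level (9 markers) between 2.00 and 23912 CPM. Endothelial and ependymal markers reached 10 CPM in at most 1 cell of any class.

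Promoters of 8 of the 10 genes were matched in RefSeq (GRCm38.p6, 250 bases before to 50 after the start site), all but those of Vgf and Cpe. They were searched for the cAMP response element TGACGTCA, the consensus bound by CREB, and on both strands for its shorter form TGACGT, which the longer one contains. The palindrome lies in the promoters of Scg2, Chgb and Pcsk1, which is 3 of 8, against 1.79% of all 32851 promoters of this length. The shorter form lies in 5 of 8, those 3 with Chga and Scg5, against 7.51% of all. The promoters of these 3 genes and of Chga are shown so that the element and its place can be compared between granins and a convertase. They are chr1:79439977-79440276 on the minus strand for Scg2, chr2:132781392-132781691 on the plus strand for Chgb, chr13:75089607-75089906 on the plus strand for Pcsk1 and chr12:102554691-102554990 on the plus strand for Chga, each printed 5′ to 3′ on the strand of its gene. Capitals mark the palindrome, and in Chga the shorter form.
Scg2: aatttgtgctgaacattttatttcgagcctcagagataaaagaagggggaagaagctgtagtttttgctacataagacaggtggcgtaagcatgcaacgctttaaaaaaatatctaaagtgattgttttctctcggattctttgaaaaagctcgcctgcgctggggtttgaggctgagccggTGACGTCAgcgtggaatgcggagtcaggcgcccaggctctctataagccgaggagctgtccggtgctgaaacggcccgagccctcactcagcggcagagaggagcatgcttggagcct
Chgb: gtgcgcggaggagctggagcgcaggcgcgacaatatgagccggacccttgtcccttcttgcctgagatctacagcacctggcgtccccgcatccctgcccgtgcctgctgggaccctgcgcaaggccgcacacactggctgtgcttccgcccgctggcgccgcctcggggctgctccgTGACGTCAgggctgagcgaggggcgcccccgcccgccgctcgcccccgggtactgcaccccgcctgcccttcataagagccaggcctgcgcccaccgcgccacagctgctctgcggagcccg
Pcsk1: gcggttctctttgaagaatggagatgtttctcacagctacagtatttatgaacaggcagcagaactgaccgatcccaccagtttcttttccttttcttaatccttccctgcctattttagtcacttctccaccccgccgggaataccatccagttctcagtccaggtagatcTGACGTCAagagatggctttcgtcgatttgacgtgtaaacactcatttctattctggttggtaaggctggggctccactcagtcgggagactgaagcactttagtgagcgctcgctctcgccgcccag
Chga: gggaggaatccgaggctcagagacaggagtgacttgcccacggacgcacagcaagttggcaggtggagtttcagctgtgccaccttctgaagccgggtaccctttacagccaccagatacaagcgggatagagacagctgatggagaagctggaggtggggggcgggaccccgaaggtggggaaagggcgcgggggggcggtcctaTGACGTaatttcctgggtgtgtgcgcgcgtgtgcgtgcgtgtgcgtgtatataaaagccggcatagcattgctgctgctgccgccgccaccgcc
The element starts at -68 in Scg2, at -72 in Chgb, at -78 in Pcsk1 and at -44 in Chga, counted from the start site. The Pcsk1 promoter also holds a further copy of the shorter form after the palindrome, which is not marked. Scg5, whose promoter is not shown, has 2 matches of the shorter form, the first at -175. A match of letters is not a site of binding. Across the 96 cells, the log levels of the 3 genes with the palindrome correlated in pairs at r = 0.31 (Scg2 and Chgb), 0.28 (Scg2 and Pcsk1) and 0.33 (Chgb and Pcsk1), close to the median of 0.29 over all 45 pairs of the 10 genes.

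The genes fell into a broadly present set and a sparse set. At a threshold of 10 CPM, Pcsk1n was found in 95 of 96 cells (99.0%, 95% exact Clopper-Pearson interval 94.3% to 99.97%), Cpe in 86 (89.6%, 81.7% to 94.9%), Scg5 in 75 (78.1%, 68.5% to 85.9%) and Scg2 in 71 (74.0%, 64.0% to 82.4%). Chga was found in 52 cells (54.2%), Chgb in 50 (52.1%), Scg3 in 37 (38.5%), Vgf in 32 (33.3%), Pcsk2 in 31 (32.3%) and Pcsk1 in 9 (9.38%, 4.38% to 17.1%). Per kilobase of exon, the scale on which different genes can be compared, the median levels were 220 CPM for Cpe, 171 for Scg5, 166 for Pcsk1n and 149 for Scg2, then 11.8 for Chga, 5.10 for Chgb, 0.457 for Scg3 and 0.281 for Pcsk2. Vgf and Pcsk1 had medians of 0. On this scale Cpe, both partner proteins and Scg2 form the abundant end, and both convertases stand at the low end. Scg2 and Scg3 were either under 10 CPM or above 100 CPM in most cells. The band between held few cells in other genes too, with 7 for Pcsk1, 9 for Cpe, 10 each for Scg5 and Pcsk1n and 11 for Chga. It held 17 cells for Pcsk2, 18 for Chgb and 23 for Vgf. Scg3 had 27 cells at 0 counts, 32 with a count but under 10 CPM, 6 between 10 and 100 CPM, and 31 above that. Scg2 had at least 1 count in all 96 cells, yet 25 of them lay under 10 CPM with a median of 5 counts, 7 lay between 10 and 100 CPM, 43 between 100 and 1000 CPM and 21 at 1000 CPM or more.

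**Figure D1:**
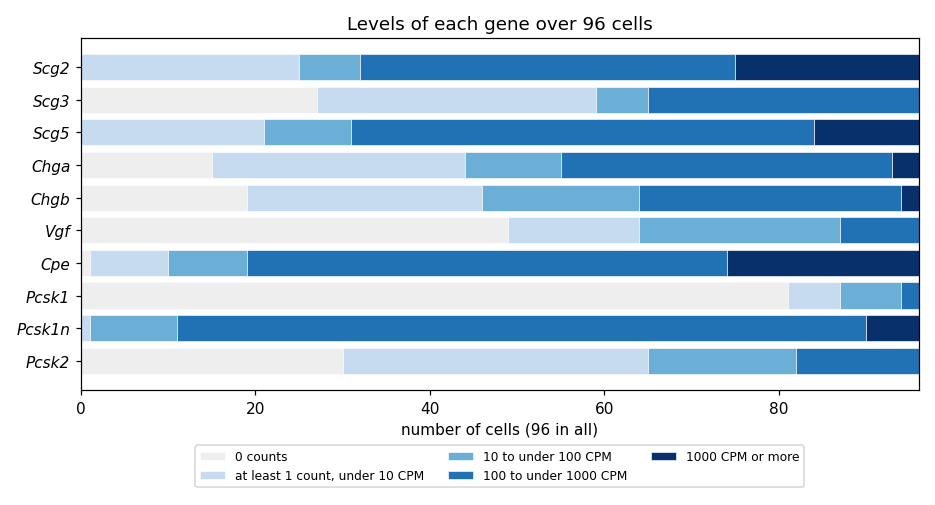
Number of cells (horizontal axis, 96 in all) at each level of each gene: 0 counts, a count under 10 CPM, 10 to under 100, 100 to under 1000, and 1000 CPM or more. Pcsk1n and Cpe reach 10 CPM in 95 and 86 cells and Pcsk1 in 9. The band from 10 to under 100 CPM holds 6 cells for Scg3, 7 each for Scg2 and Pcsk1, and up to 23, for Vgf.

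Scg2, secretogranin II (chr1:79434669-79440120, minus strand), the precursor of secretoneurin, was the granin with the highest single values. It measured 251, 988, 1020, 1935 and 432 CPM in the 5 cold-sensitive cells, none of which lay near 0. In warm-sensitive cells its lowest, median and highest values were 1.16, 124 and 9219 CPM, against 3.11, 447 and 2677 CPM in insensitive cells. In silent sensitive cells they were 2.45, 157 and 9032 CPM, against 0.937, 484 and 2828 CPM in silent insensitive cells. Every class overlapped every other, and the cold-sensitive class was the only 1 of the 5 with no cell under 10 CPM. A few cells carried much of the Scg2 RNA: warm-sensitive cell 12 held 49.2% of the counts of its class and silent sensitive cell 8 held 67.0% of its own. The level summed over the class was 894 CPM in warm-sensitive cells and 477 CPM without that cell, against 585 CPM in insensitive cells. It was 1061 CPM in silent sensitive cells and 380 CPM without that cell, against 599 CPM in silent insensitive cells.

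Chga, chromogranin A (chr12:102554969-102565028, plus strand), a precursor of vasostatin and catestatin, measured 0.639, 29.5, 194, 0 and 0 CPM in the 5 cold-sensitive cells. Its lowest, median and highest values were 0, 5.11 and 1380 CPM in warm-sensitive cells, against 0, 147 and 1058 CPM in insensitive cells. They were 0, 3.61 and 619 CPM in silent sensitive cells, against 0, 2.00 and 443 CPM in silent insensitive cells. The insensitive class had the highest median among the 5 classes and the cold-sensitive class the lowest. The interquartile ranges of these 2 classes did not overlap, which held for 3 of 100 pairs of classes over the 10 genes. The others were Pcsk1n in cold-sensitive against insensitive and against silent sensitive cells. All 3 pairs involve the cold-sensitive class of 5 cells, and the share of such pairs over all genes was not computed.

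Chgb, chromogranin B (chr2:132781278-132795079, plus strand), the other chromogranin of the vesicle matrix, measured 39.0, 326, 309, 2.31 and 77.99 CPM in the 5 cold-sensitive cells. Its lowest, median and highest values were 0, 1.73 and 739 CPM in warm-sensitive cells, against 0, 49.0 and 1016 CPM in insensitive cells. They were 0, 1.01 and 1584 CPM in silent sensitive cells, against 0, 1.44 and 648 CPM in silent insensitive cells. The cold-sensitive and insensitive medians stood above the other 3, with overlapping ranges throughout. In 37 of 96 cells Chga and Chgb were both at 10 CPM or more, 15 had Chga alone, 13 had Chgb alone and 31 had neither.

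Scg3, secretogranin III (chr9:75643189-75684056, minus strand), which links Chga to cholesterol-rich vesicle membranes, reached 10 CPM in 13 of 24 insensitive cells and in a smaller share of every other class. That order depends on the threshold. At 1 count or more Scg3 was in 66.7% of insensitive, 100% of cold-sensitive and 85.7% of warm-sensitive cells. It was then in 70% of silent sensitive and 55.6% of silent insensitive cells. The median of Scg3 was 1.23 CPM in warm-sensitive and 0.819 CPM in cold-sensitive cells, against 53.2 CPM in insensitive cells. It was 1.17 CPM in silent sensitive cells, against 0.829 CPM in silent insensitive cells. The highest cell of a class lay between 186 and 828.7 CPM, so each class had cells with Scg3 and cells under 10 CPM. Vgf (chr5:137026392-137033351, plus strand), whose product gives several bioactive peptides and which is induced by neurotrophins, was the sparsest granin. Its median was 0 in warm-sensitive and 1.16 CPM in cold-sensitive cells, against 0.436 CPM in insensitive cells. The highest class median was 18.2 CPM in silent sensitive cells (range 0 to 570 CPM), against 0 in silent insensitive cells (0 to 217 CPM).

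**Figure D2:**
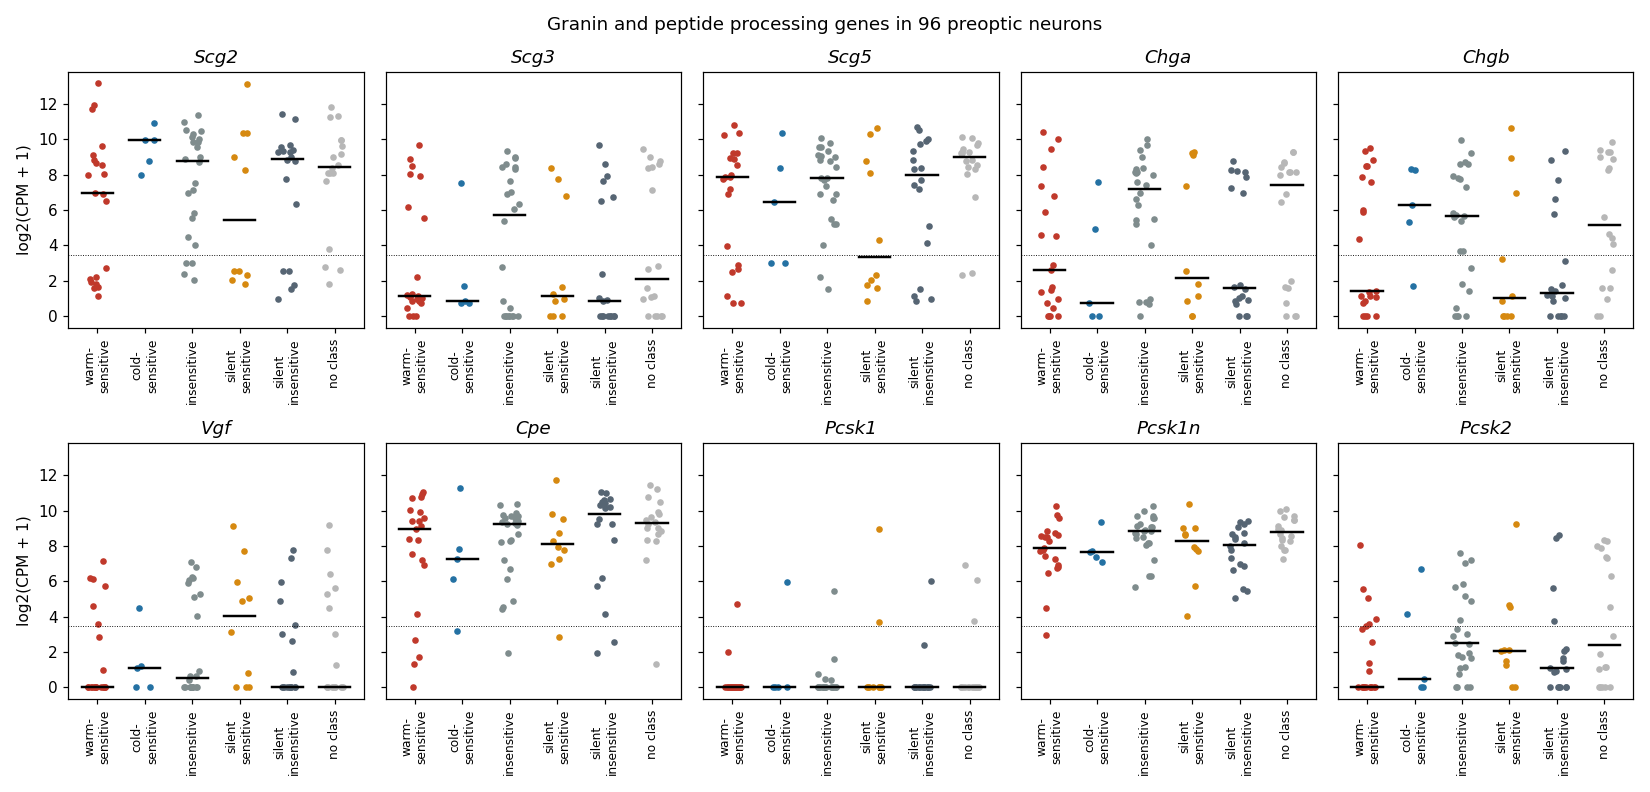
Level of each gene in each of the 96 cells, as log2(CPM + 1) on the vertical axis, by temperature class; points are cells, black bars are class medians and the dotted line marks 10 CPM. Scg2 has no cold-sensitive cell under 251 CPM, the Chga median is 147 CPM in insensitive cells, and Pcsk1 lies at 0 in most cells of every class.

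Among the convertases, Pcsk1 (chr13:75089826-75134861, plus strand) was rare. It had counts in 15 cells and reached 10 CPM in 9 of them: 1 warm-sensitive, 1 cold-sensitive, 1 insensitive, 2 silent sensitive, 1 silent insensitive and 3 of unknown class. Silent sensitive cell 3 measured 495 CPM, which was 97.9% of all Pcsk1 counts of its class, and the highest insensitive cell measured 42.1 CPM. Pcsk2 (chr2:143546156-143816285, plus strand) had counts in 66 cells but reached 10 CPM in 31. Its median was 0 in warm-sensitive and 0.41 CPM in cold-sensitive cells, against 4.61 CPM in insensitive cells, and 3.21 CPM in silent sensitive cells, against 1.10 CPM in silent insensitive cells. Silent sensitive cell 8 measured 598 CPM of Pcsk2 and held 88.7% of the counts of its class. At 10 CPM, 7 cells had both convertases, 2 had Pcsk1 alone, 24 had Pcsk2 alone and 63 had neither. In a library of this depth, a convertase under 10 CPM is not shown to be absent from the cell.

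The partner proteins were far more widespread than the enzymes they bind. Pcsk1n (chrX:7919822-7924410, plus strand), which encodes proSAAS, an inhibitor of PC1/3, was present in all 9 cells with Pcsk1 and in 86 cells without it. Its median was 234 CPM in warm-sensitive and 199 CPM in cold-sensitive cells, against 468 CPM in insensitive cells, and 319 CPM in silent sensitive cells, against 268 CPM in silent insensitive cells. It varied least of the 10 genes, with an SD of 1.40 log2 units between cells, a lowest cell of 6.76 CPM and a highest of 1346 CPM. Scg5 (chr2:113776362-113829121, minus strand), which encodes 7B2, the chaperone and inhibitor of PC2, was present in 28 of the 31 cells with Pcsk2 and in 47 cells without it. It measured 7.03, 340, 1313, 6.93 and 86.9 CPM in the cold-sensitive cells. Its lowest, median and highest values were 0.661, 238 and 1793 CPM in warm-sensitive cells, against 1.86, 225 and 1091 CPM in insensitive cells. They were 0.786, 11.5 and 1621 CPM in silent sensitive cells, against 0.822, 262 and 1698 CPM in silent insensitive cells. The silent sensitive class thus had the lowest Scg5 median while its highest cell lay among the highest cells of the other classes.

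Cpe (chr8:64592542-64693054, minus strand), which removes basic residues after the convertase cut and also serves as a sorting protein, was found with Pcsk2 in 30 of 31 cells. At 10 CPM it was also found in 56 of the 65 cells without Pcsk2. It measured 154, 228, 2508, 8.09 and 68.4 CPM in the cold-sensitive cells. Its lowest, median and highest values were 0, 499 and 2136 CPM in warm-sensitive cells, against 2.83, 599 and 1352 CPM in insensitive cells. They were 6.28, 277 and 3424 CPM in silent sensitive cells, against 2.88, 940 and 2164 CPM in silent insensitive cells. Cpe is also known from astrocytes. Over the 96 cells the 10 genes correlated at -0.05 to 0.16 with the summed astrocyte markers, Cpe at 0.11, and Cpe had the lowest correlation of the 10 with the neuronal markers (0.04). For each of the 10 genes the classes were ranked by median, and in all 40 pairs of neighbours in that ranking the interquartile ranges overlapped. Neighbours in a ranking lie closest, which favours overlap, and the share over all genes was not computed.

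Classes were then compared by the difference of the mean log2(CPM + 1), given as measured and relative to the median difference of the 2792 genes that reached 10 CPM in at least 25% of the 78 classified cells, and a relative difference of 1 log2 unit or more in size is called past the fold. Of the 10 genes, 9 are among those 2792, and Pcsk1 is not. A gene near 0 in both classes can only move little on this scale, so where the median gene is lower, Vgf, Pcsk1 and Pcsk2 tend to come out above it by construction.

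In warm-sensitive against insensitive cells, all 9 genes were lower as measured, but the median gene was lower still, at -1.53 log2 units. Relative to it, none of the 9 passed the fold in either direction, where 14.9% of all genes did so upward and 14.9% downward. The 9 had a median relative difference of 0.61, and 8 of them lay above the median gene. With no filter, the reference was the median over all genes with a count in at least 1 classified cell, most of them near 0. All 10 genes then entered, and their median was -0.60, so the direction depends on which genes set the reference. Chga was the one below, at -2.27 as measured and -0.75 relative, with 42.9% of warm-sensitive cells at 10 CPM (21.8% to 66.0%), against 79.2% of insensitive cells (57.8% to 92.9%). After thinning to 100000 counts outside Rn45s, where 1 count reaches 10 CPM, these shares were 75% and 83.3%. At 1 count or more without thinning they were 81.0% and 95.8%. At 10 CPM with Rn45s left out of the totals they were 47.6% and 79.2%. The relative difference of Chga ranged over the alternatives from -1.99, with no filter, to -0.06, within title letters. The latter compares classes within the letter of the cell's title, whose meaning is not given. Without the cells over 75% Rn45s the relative difference of Chga was -0.08. Cpe (0.95) and Vgf (0.998) were at the upper end. The higher Rn45s share and lower neuronal marker RNA of the warm-sensitive cells move with these differences, and their part in them was not tested.

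In cold-sensitive against insensitive cells, which are the same 24 insensitive cells, 2 of the 9 genes were past the fold upward and 2 downward, beside 22.1% and 21.6% of all genes, so the counts are near those of genes at large. Scg2 was higher by 1.95 log2 units as measured and 2.35 relative, and Chgb by 1.08 as measured and 1.47 relative. Chga differed by -3.42 as measured and -3.02 relative, and Scg3 by -2.04 as measured and -1.64 relative. The 2 chromogranins thus stood on opposite sides: Chga reached 10 CPM in 40.0% of cold-sensitive cells, against 79.2% of insensitive cells, while Chgb reached it in 80.0% of cold-sensitive cells, against 66.7% of insensitive cells. With 5 cells in the class, the exact intervals of the cold-sensitive shares are wide, 5.27% to 85.3% for Chga and 28.4% to 99.5% for Chgb. Leaving out 1 cell at a time, the relative difference stayed between 1.39 and 2.88 for Scg2 and between -3.95 and -2.13 for Chga, while Chgb went down to 0.87. Within title letters Scg3 came to -0.37 and Chga to -1.89. Cold-sensitive cell 3 held 78.5% of the Scg5, 88.3% of the Cpe, 98.8% of the Scg3 and 91.3% of the Pcsk2 counts of its class. Without that cell 7 of the 9 genes were past the fold, and the share of all genes past it was not computed for this setting. The summed microglial markers had a median of 2477 CPM in cold-sensitive cells, against 440 CPM in insensitive cells, and their part in these differences was not tested.

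**Figure D3:**
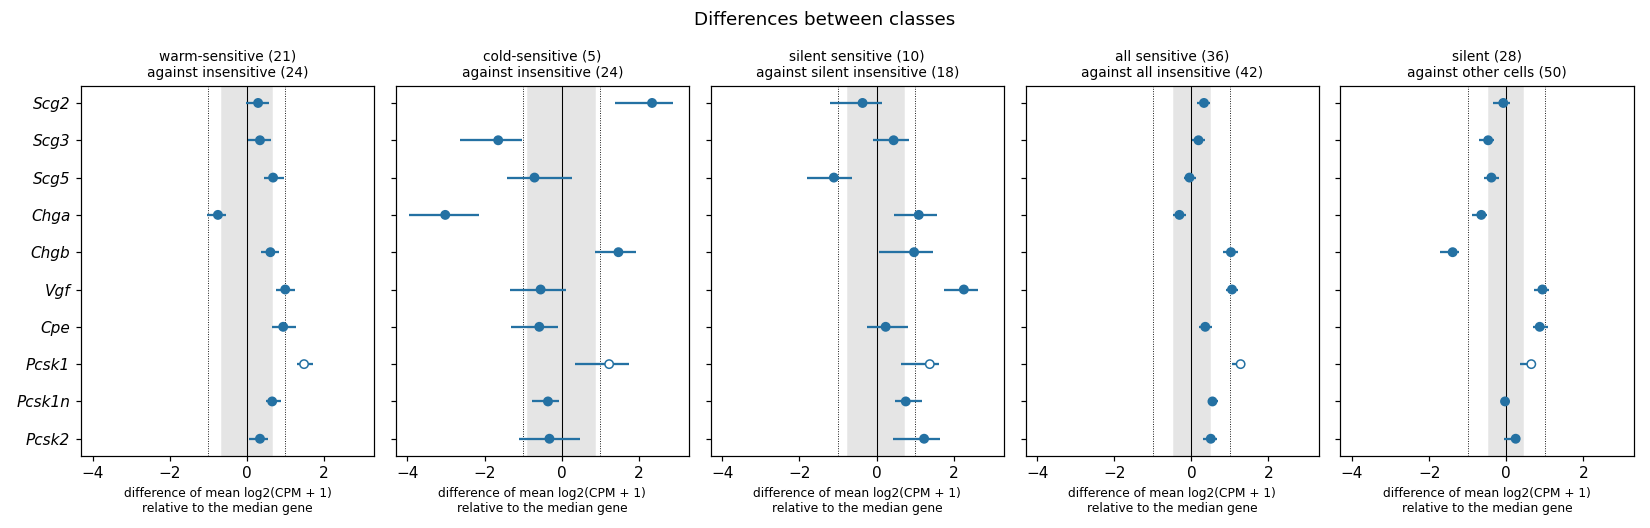
Difference of the mean log2(CPM + 1) relative to the median gene (horizontal axis) in 5 comparisons, the first-named class minus the second, with numbers of cells in brackets. Points are the values, lines the lowest and highest value when 1 cell is left out, the grey band the interquartile range of all 2792 genes, dotted lines the fold of 1 log2 unit, and the open point is Pcsk1, which did not reach 10 CPM in enough cells; Scg2 (2.35) and Chga (-3.02) lie outside the band in cold-sensitive cells, and Vgf (2.27) in silent sensitive cells.

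In silent sensitive against silent insensitive cells, 3 of the 9 genes were past the fold upward and 1 downward, beside 17.7% and 18.3% of all genes. Vgf was higher by 1.68 log2 units as measured and 2.27 relative, and passed the fold under all 11 alternatives of scaling, filter, pseudocount and cell choice, at 1.28 to 3.20. Within title letters it was 0.86 as measured and 1.33 relative. Silent sensitive cell 4 held 65.1% of the Vgf counts of its class, and the summed level was 95.95 CPM in silent sensitive cells and 37.6 CPM without that cell, against 33.1 CPM in silent insensitive cells. It reached 10 CPM in 50% of silent sensitive cells (18.7% to 81.3%), against 27.8% of silent insensitive cells (9.69% to 53.5%). Pcsk2 (0.65 as measured, 1.23 relative) and Chga (0.51 and 1.10) came down to 0.44 and 0.45 relative without silent sensitive cell 8. Scg5 was on the lower side, at -1.69 as measured and -1.11 relative, with 50% of silent sensitive cells at 10 CPM, against 77.8% of silent insensitive cells. It came to -0.64 relative without silent sensitive cell 6 and to -0.71 with DESeq2 size factors. Within title letters Scg5 stood at -1.73 and Pcsk2 at -0.17 as measured, and at -1.25 and 0.30 relative. Chgb (0.97 relative) came to 2.31 without the cells over 75% Rn45s and to -0.09 within title letters. Rn45s was past 75% in 2 of the silent sensitive and 4 of the silent insensitive cells, and its part was not tested.

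Pooling the 36 sensitive and 42 insensitive cells, 2 genes were past the fold upward and 0 downward, beside 7.38% and 8.2% of all genes. They were Vgf (1.05 relative) and Chgb (1.03 relative), whose levels as measured were 0.07 and 0.05 log2 units apart while the median gene was at -0.98. The share of cells with Vgf was 33.3% in sensitive and 33.3% in insensitive cells, and that with Chgb 47.2% in sensitive and 50% in insensitive cells. Neither passed the fold with library sizes scaled by TMM or DESeq2. The 9 genes had a median of 0.36, and with no filter all 10 genes had a median of -0.35.

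In the 28 silent against the 50 other classified cells, 0 genes were past the fold upward and 1 downward, beside 5.91% and 7.13% of all genes, so a count of this size is near that of genes at large. Chgb differed by -1.72 as measured and -1.39 relative, with 28.6% of silent cells at 10 CPM, against 60.0% of the others. The relative difference was -0.91 within title letters and between -1.71 and -1.22 when 1 cell was left out. Vgf (0.94) and Cpe (0.87) lay above the median gene and Chga (-0.65) below it. Pcsk1 had differences of -0.04, 0.83, 0.80, 0.30 and 0.32 as measured, and of 1.49, 1.23, 1.38, 1.28 and 0.65 relative to the median gene, in the 5 comparisons as listed, with 6 classified cells at 10 CPM behind them. Without cold-sensitive cell 3 and silent sensitive cell 3, the relative values of their comparisons were 0.35 and 0.62. The 5 comparisons share cells, so their values are not independent of each other.

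Across the 96 cells, the 45 pairs of the 10 genes had positive correlations of log2(CPM + 1), from 0.08 to 0.56, with a median of 0.29. The median over all pairs of the 3025 genes at 10 CPM in at least 25% of the 96 cells was 0.15, and 42 of the 45 pairs lay above it. With Rn45s left out of the totals these medians were 0.19 and 0.10, with 35 pairs above and a lowest r of -0.08. Scg5 and Chga were the closest pair (r = 0.56, and 0.49 without Rn45s), and at 10 CPM Chga was accompanied by Scg5 in 50 of its 52 cells. Scg5 was also at 10 CPM in 25 of the 44 cells without Chga. Chgb joined them, at r = 0.48 with Scg5 and 0.46 with Chga. Vgf and Pcsk1n were closest to Scg2 (r = 0.42 and 0.43), and 29 of the 32 cells with Vgf had Scg2. At 10 CPM, 42 of the 64 cells without Vgf had Scg2 too. These points share depth and the Rn45s share: the 10 genes correlated at 0.23 to 0.44 with the number of genes detected, where all genes had a median of 0.36, and at -0.53 to -0.23 with the Rn45s share, where all genes had -0.29.

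**Figure D4:**
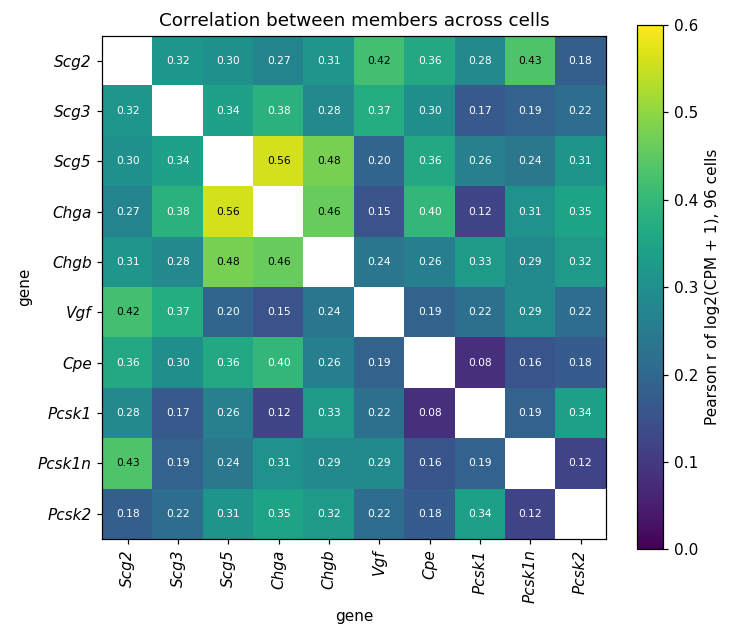
Pearson correlation of log2(CPM + 1) between the 10 genes over 96 cells, shown by colour and number. Scg5 with Chga has the highest value (0.56), Chgb joins both at 0.48 and 0.46, and Cpe with Pcsk1 has the lowest (0.08).

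The genes most like each of the 10 across cells were sought among all genes. Rtn1, a reticulon of the neuronal endoplasmic reticulum, followed Scg5 (r = 0.64) and Chga (0.61), and Tmem59l followed Chga (0.61). No other of the 10 had a gene at r of 0.6 or more. Their highest values were 0.52 for Scg2, 0.56 for Scg3, 0.53 for Chgb, 0.44 for Vgf, 0.49 for Cpe, 0.48 for Pcsk1, 0.51 for Pcsk1n and 0.54 for Pcsk2.

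The number of the 10 genes at 10 CPM in a cell had a median of 4 in warm-sensitive, 5 in cold-sensitive and 7 in insensitive cells. It was 4 in silent sensitive and 4.5 in silent insensitive cells. The median number of all genes with a count was 3244 in warm-sensitive, 4645 in cold-sensitive and 4022 in insensitive cells. In silent sensitive and silent insensitive cells that number was 3230 and 3668.5, and its part in the medians of the 10 genes was not tested. In 3 cells all 10 were found: 2 of unknown class and silent sensitive cell 3, which also carried 11252 CPM of Penk, the enkephalin precursor. Silent sensitive cell 8, with 8 of the 10, carried 14603 CPM of Tac1, the substance P precursor. Warm-sensitive cell 12 had 9 of the 10 and the highest Scg2 level, yet 2.32 CPM of its highest precursor on a list of 28. Cells with 1000 CPM or more of a precursor on that list numbered 20, and the other 76 had none at that level. Pcsk1 or Pcsk2 was at 10 CPM in 7 of these 20 (35.0%, 15.4% to 59.2%), against 26 of the other 76 (34.2%, 23.7% to 46.0%). Scg3 was at 10 CPM in 10% of the 20 (1.23% to 31.7%), against 46.1% of the 76 (34.5% to 57.9%), and Vgf in 15% of the 20 (3.21% to 37.9%), against 38.2% of the 76 (27.2% to 50%). Cpe, Pcsk1n and Scg5 were found in 95%, 100% and 85% of the 20 cells, against 88.2%, 98.7% and 76.3% of the 76. No label defines these 2 sets of cells. The 20 and the 76 had medians of 3792.5 and 3570 genes with a count, and of 49.9% and 57.4% Rn45s. The difference between the sets was not tested, and how often other genes differ as much was not computed.

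A wider list of 26 genes of peptide processing and dense-core vesicles gave the setting of the 10. The table held 25 of them, and 13 reached 10 CPM in enough cells. Resp18, a protein of the vesicle lumen, was found in 89.6% of the 96 cells and Pam, which amidates peptides, in 54.2%, so Resp18 was as widespread as Cpe. In warm-sensitive against insensitive cells 1 of the 13 was past the fold upward and 3 downward, beside 14.9% of all genes each way. Rab3b (1.04) and Ptprn2 (0.72), a vesicle membrane protein, had the highest relative differences. As measured both were lower in warm-sensitive cells, at -0.49 and -0.80, where the median gene was at -1.53. Rab2a (-2.28), a small GTPase needed for vesicle maturation in worms, and Baiap3 (-1.71), a factor of vesicle fusion and recycling, had the lowest. As measured Rab2a was at -3.80 and Baiap3 at -3.24. Rab2a was at 10 CPM in 38.1% of warm-sensitive cells, against 87.5% of insensitive cells. In cold-sensitive against insensitive cells the counts were 3 upward and 2 downward, beside 22.1% and 21.6% of all genes, with Rab2a (1.499) and Cadps (1.46), a priming factor, at the upper end and Ica1 (-2.62) and Baiap3 (-1.68) at the lower. Rab2a therefore had relative differences of opposite sign in the warm- and cold-sensitive comparisons, which share their insensitive cells. In silent sensitive against silent insensitive cells 4 were upward and 1 downward, beside 17.7% and 18.3% of all genes, led by Ctsl (2.35), the protease cathepsin L, and Ica1 (1.52), with Hid1 (-1.11) and Cadps (-0.32) lowest. Over all sensitive against all insensitive cells 0 passed, beside 7.38% of all genes upward and 8.2% downward. Ctsl (0.90), Ptprn2 (0.74), Baiap3 (-0.84) and Rab2a (-0.67) were at the ends. As measured all of these were lower in sensitive cells, at -0.08, -0.24, -1.82 and -1.65. Over silent against other cells 1 passed upward, Rab3b (1.92), beside 5.91% of all genes, with Resp18 (0.61), Hid1 (-0.62) and Ctsl (-0.55) the other ends. Also past the fold, and named after their values were seen, were Syt4 (-1.04) in the warm-sensitive, Pam (1.23) in the cold-sensitive, and Ptprn2 (1.20) and Rab2a (1.11) in the silent sensitive comparison. On the list of 28 precursors 2 genes were frequent enough to compare. Both were past the fold upward in silent sensitive against silent insensitive cells, where 17.7% of all genes were. Tac1 stood at 1.68 as measured and 2.26 relative, and Avp, the vasopressin precursor, at 1.20 and 1.78. The Tac1 medians were 1.12 and 0.205 CPM, while silent sensitive cell 8 alone measured 14603 CPM. The Tac1 difference without that cell was not computed.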

How the data were processed

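Single neurons were picked after patch-clamp recording and sequenced with Smart-seq2 and Nextera XT, per the labels' protocols. Raw read counts per gene were deposited, and beside them normalized values (a signal) made by the authors, which for each cell are CPM times a constant between 0.402 and 5.64. FastQC, STAR, edgeR and the mm10 build are named in the submitters' processing notes. How reads were assigned to genes, with which annotation and whether by strand, was not given in the sources used here. Overlapping and antisense genes therefore cannot be told apart by their reads.

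CPM was computed over all genes of a cell, and levels were compared as log2(CPM + 1), so folds of low genes are understated. Gene coordinates and exon lengths come from GENCODE on GRCm38. Intervals are exact (Clopper-Pearson for shares, Poisson for sums), at 95%. Those for shares take cells as independent draws, which the labels do not show, and leave out spread between animals, slices or days. Those for sums cover counting error of reads only, and reads without molecular identifiers are not independent molecules. No cell was left out, no 2 cells were identical, and the highest correlation between 2 cells was 0.65. The steps were tested on simulated data. The 10 genes, the wider lists and the markers were chosen with earlier results of these data known. Named genes are the 10 in every comparison, their most correlated genes at r of 0.6 or more among the first 3, the 2 highest and 2 lowest of the wider list, and precursors at 1000 CPM in 3 or more cells; exceptions are stated. Alternatives were CPM without Rn45s, TMM (edgeR 4.0.16), DESeq2 1.42.0 size factors, the deposited normalized values, pseudocounts of 0.1 and 10 CPM, other filters, leaving out cells over 75% Rn45s, thinning to 100000 counts outside Rn45s, comparison within title letters, and leaving out each cell. Scripts ran in Python 3.11.15 (pandas 2.3.3, scipy 1.17.1) and R 4.3.3.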

Additional observations from a re-analysis of the deposited data

Results flagged for a closer look

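In classes of 5 or 10 cells, a cell was set apart when its gap to the nearest other cell took an unusually large part of the range of the class on the log2(CPM + 1) scale; for normally spread values chance flags about 1 in 20 such groups, and 20 were looked at, but levels here pile up near 0 and the rate for them is not known. Cold-sensitive cell 3 was set apart in Scg3 (186 CPM), Pcsk1 (62.1 CPM) and Pcsk1n (664 CPM), and cold-sensitive cell 2 in Vgf (21.7 CPM). For Pcsk1 the other 4 cold-sensitive cells were at 0, so that any count would have set a cell apart. Silent sensitive cell 3 was set apart in Pcsk1 (495 CPM) and silent sensitive cell 8 in Pcsk2 (598 CPM). Cold-sensitive cell 3 had 5179 genes with a count, the most of its class, and 45.2% Rn45s, the lowest share of its class. Its class median was 4645 genes. In the 18 cells of unknown class, which enter no comparison, the medians of Scg5 (528 CPM) and Chga (184 CPM) lay above those of both insensitive classes, and that of Pcsk2 (4.61 CPM) equalled the insensitive median to 3 digits. These cells had the highest median of summed neuronal markers, 5002 CPM, and the lowest median Rn45s share, 42.2%, and the part of either in these levels was not tested.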

How the results depend on the processing

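With each class counted as 1 sample, only values could be compared between settings. The number of genes past the fold, out of the 9 frequent enough to compare (out of 10 where no filter was set), in warm-sensitive against insensitive cells was 0 as reported, 3 without Rn45s in the totals, 1 with TMM, 3 with DESeq2 size factors, 2 with the deposited normalized values, 6 with a pseudocount of 0.1 CPM, 1 with no filter on low genes, 3 without cells over 75% Rn45s, 2 after thinning, 1 within title letters, and 0 to 2 when a cell was left out. In cold-sensitive cells it was 4, 3 with a pseudocount of 10 CPM, 5 with a pseudocount of 0.1 CPM or after thinning, and 4 to 7 when a cell was left out. In silent sensitive cells it was 4, but 1 with a pseudocount of 10 CPM, 2 with no filter, and 2 to 5 when a cell was left out. For all sensitive cells it was 2, but 0 with TMM, DESeq2 size factors, the deposited values, a pseudocount of 10 CPM or within title letters, 1 with no filter, and 0 to 2 when a cell was left out. For silent cells it was 1, but 3 without Rn45s, with a pseudocount of 0.1 CPM or after thinning, 0 with a pseudocount of 10 CPM, 4 without cells over 75% Rn45s, 2 within title letters, and 1 to 3 when a cell was left out. The share of all genes past the fold was computed for the reported setting only, so these other counts cannot be set beside genes at large. The cause of these changes was not tested. The median of the 9 genes kept its sign under every alternative in the cold-sensitive and silent sensitive comparisons. Without the filter, where all 10 genes enter, their median was -0.60 in warm-sensitive and -0.35 in all sensitive cells. In silent cells the median of the 9, at -0.08, took both signs. No paired analysis was possible because the labels pair no cells between classes. Depth limits what can be said of Pcsk1, Vgf, Scg3 and Pcsk2, whose medians over the 96 cells were 0, 0, 1.25 and 2.22 CPM. Of 250 shares of cells under other settings, 53 lay outside the interval of the value at 10 CPM.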

Other observations

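The labels give the class of 18 cells as unknown, and their levels are given here as lowest, median and highest values. Among the granins, Scg2 measured 2.58, 353 and 3733 CPM, Chga 0, 184 and 622 CPM, and Chgb 0, 36.1 and 938 CPM. Scg3 measured 0, 3.64 and 716 CPM and Vgf 0, 0 and 585 CPM. Of the processing genes, Cpe measured 1.46, 630 and 2793 CPM, Scg5 3.99, 528 and 1137 CPM, and Pcsk1n 151, 446 and 1100 CPM. Pcsk2 measured 0, 4.61 and 322 CPM and Pcsk1 0, 0 and 120 CPM, with 3 of the 9 cells at 10 CPM of Pcsk1 among these 18. The number of the 10 genes at 10 CPM had a median of 6.5 in them.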
